A study of Homo sapiens with 9 samples.

Results

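The genes of the cytosolic ribosomal proteins were followed together with long noncoding RNAs whose introns hold small nucleolar RNAs (snoRNAs). Genes were taken by name: protein-coding genes named RPL or RPS with a number, plus RPLP0, RPLP1, RPLP2 and RPSA, outside the Y chromosome, and noncoding genes named SNHG with a number, plus GAS5. This gave 106 of the 26871 genes present in all 3 count tables, namely 83 ribosomal protein genes (51 of the large and 32 of the small subunit) and 23 noncoding snoRNA hosts. SNHG28 carries such a name but is listed as protein coding and was left out.

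Bulk RNA sequencing was done on whole spinal cord organoids grown from WTC, a human induced pluripotent stem cell line. Organoids received vehicle (medium with FGF), VPA (valproic acid, an inhibitor of histone deacetylases) or VPA together with Rapamycin (an inhibitor of the kinase mTOR), for 96 h by the sample labels, with 3 libraries in each condition. The study's text describes a shorter exposure for its imaged organoids. The labels give the genotype as WT, while the study describes clones of WTC with a reporter inserted at SOX10, with the organoids of each clone pooled for RNA. Libraries of the same number share a prefix across the conditions in the labels, which does not carry the name of a clone, so that p-values measure the spread between these libraries, which may be that between clones. The progenitor markers PAX6, SOX2, NES and HES5 summed to between 1595 and 2118 CPM (counts scaled to a library total of 1000000) in every library, and the pluripotency markers NANOG and POU5F1 to at most 1.13. Libraries held 15290299 to 17417338 counts on genes, and 3 counts in a library corresponded to 0.170 to 0.198 CPM. The scaling of CPM uses TMM factors set over the 9 libraries. In bulk RNA, fewer cells of a type and less RNA per cell cannot be told apart.

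Ribosomal protein genes are transcribed at very high levels, and each ribosome takes up a single copy of most of their products. Their mRNAs start with a C followed by a run of pyrimidines, the 5′ terminal oligopyrimidine (TOP) tract, through which mTOR controls their translation. Many noncoding snoRNA hosts share this start: the introns give rise to snoRNAs that guide modification of ribosomal RNA, whereas the spliced RNA is mostly degraded by nonsense-mediated decay, which depends on translation. RNA sequencing measures the amount of these RNAs and not how much of them is translated.

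The starts are shown because a TOP tract is the feature these genes are known for. RefSeq starts on GRCh38.p14 were found for 85 of the 106 genes. A start was counted as a pyrimidine start where the first transcribed base is C and at least 4 further bases are C or T. Where a gene had several RefSeq starts, that with the longest run was taken. Of the ribosomal protein genes with an entry, 47 of 66 (71.2%) had such a start, as did 5 of 19 hosts (26.3%) and 847 of 11902 tested genes with an entry (7.12%). These shares depend on where RefSeq places the start, so a gene that fails the rule may still have a TOP tract. Below, 10 bases before and 20 bases from the start are printed in the direction of transcription, with the run from the first base in capitals where it passes this rule. RPS6, RPS23, RPL41 and RPLP2 are core ribosomal proteins, each of the next 3 pairs holds a ribosomal protein gene and its paralog, and the last 4 are hosts.
RPS6 (chr9:19380217-19380246, minus strand): gaagttggccCTCTTTTCCgtggcgcctcg
RPS23 (chr5:82278335-82278364, minus strand): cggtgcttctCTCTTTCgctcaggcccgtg
RPL41 (chr12:56116623-56116652, plus strand): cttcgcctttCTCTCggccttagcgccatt
RPLP2 (chr11:809957-809986, plus strand): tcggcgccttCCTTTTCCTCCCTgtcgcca
RPL22 (chr1:6199576-6199605, minus strand): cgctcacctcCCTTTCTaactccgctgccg
RPL22L1 (chr3:170870176-170870205, minus strand): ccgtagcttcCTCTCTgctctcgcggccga
RPL26 (chr17:8383174-8383203, minus strand): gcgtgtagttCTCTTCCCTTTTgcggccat
RPL26L1 (chr5:172958719-172958748, plus strand): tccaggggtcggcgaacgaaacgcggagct
RPS27 (chr1:153990752-153990781, plus strand): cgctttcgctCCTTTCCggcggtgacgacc
RPS27L (chr15:63157458-63157487, minus strand): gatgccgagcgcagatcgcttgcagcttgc
SNHG1 (chr11:62855866-62855895, minus strand): gagattcgttctcatttttctactgctcgt
SNHG4 (chr5:139274091-139274120, plus strand): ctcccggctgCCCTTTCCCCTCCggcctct
SNHG5 (chr6:85678714-85678743, minus strand): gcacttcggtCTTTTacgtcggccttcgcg
SNHG8 (chr4:118278752-118278781, plus strand): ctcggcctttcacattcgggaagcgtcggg
RPL22L1 has a run of 6 pyrimidines like its paralog RPL22, with 7, whereas RPL26L1 and RPS27L start with no C and so lack the run of 12 in RPL26 and of 7 in RPS27. SNHG1 has C, T and C and then A, and thus falls just short of the rule.

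Ribosomal protein mRNA took up a large part of every library. Its share of all counts was 4.73%, 4.11% and 4.08% in the 3 vehicle libraries, 4.997%, 4.75% and 4.68% with VPA, and 4.75%, 5.29% and 4.70% with VPA + Rapamycin. Vehicle 1 lay within the range of the treated libraries, so the groups overlap. The hosts took up 0.0934%, 0.0927% and 0.0977% in vehicle, 0.0847%, 0.0855% and 0.0844% with VPA, and 0.0795%, 0.0839% and 0.0820% with VPA + Rapamycin. All 6 treated libraries were below all 3 vehicle libraries. This sum is weighted to abundant hosts: SNHG14 had a mean count of 3695 over the 9 libraries, where all hosts held 12791 to 16320 counts. UBE3A on the other strand and PWAR6 on the same strand overlap SNHG14, with mean counts of 61.3% and 27.5% of its own.

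**Figure D1:**
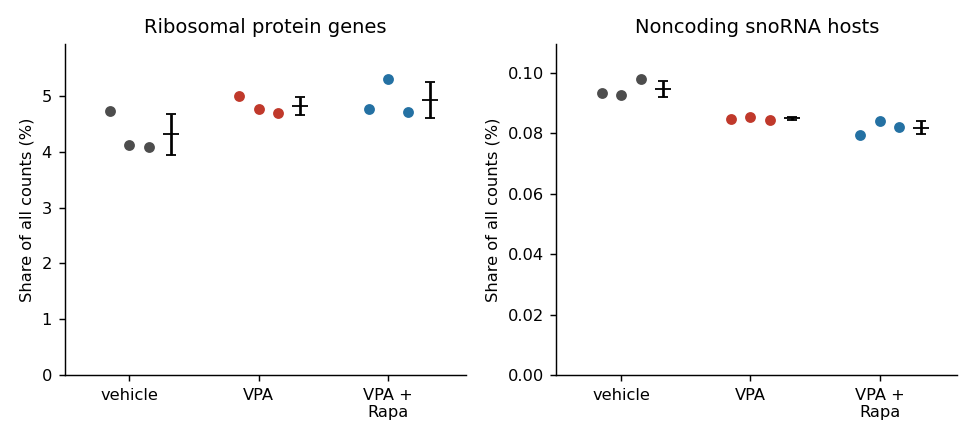
Share of all counts (%) taken by the ribosomal protein genes (left) and the noncoding snoRNA hosts (right) in each library. Points are libraries 1 to 3 of each condition from left to right, and bars are the mean ± SD of 3. Vehicle 1, at 4.73%, reaches into the range of the treated libraries on the left, while the summed share of the hosts is lower in all treated libraries.

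Levels differed widely among the genes. Per kilobase of the annotated gene length, RPS12 (mean of 660 CPM per kb over the 9 libraries) and RPL13A (651) were highest among the ribosomal protein genes, and RPL36A (1.68), RPS10 (0.610) and RPL3L (0.0512) lowest. RPL3L, a paralog of RPL3 known from muscle, had between 0 and 7 counts in a library and did not pass the filter on low counts. RPS10, a core small subunit protein, had only 9 to 36 counts in a library. Genes with near-identical processed copies can lose reads in counting, as can genes that share sequence with an overlapping gene. RPL17-C18orf32 overlaps RPL17 on the same strand, with a mean count of 6.17% of its own. How reads with several matches were treated is not given in the sources used here. The low levels of RPS10, RPL36A and RPL17 are thus uncertain, and their cause was not tested. Among the hosts, SNHG1 (39.9 CPM per kb), SNHG6 (38.4) and GAS5 (32.8) were highest, and SNHG26 (0.445), SNHG25 (0.272) and SNHG22 (0.103) lowest. SNHG25 and SNHG22 were at most 0.492 CPM in any library and were not tested.

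VPA was compared with vehicle to ask whether exposure changed these RNAs. Most ribosomal protein genes moved little: of 82 tested, 10 rose and 1 fell (edgeR quasi-likelihood test, Benjamini-Hochberg adjusted p at most 0.05 over 17360 genes), against 16.4% of all genes called higher and 15.7% called lower. The median log2 fold change was 0.12, with 54 estimates above 0 and 28 below, and all estimates lay between -0.69 and 0.54. Over all genes tested the median was -0.00, and over the 611 other genes expressed at or above the lower quartile of the ribosomal protein genes it was -0.08, with 74 higher and 155 lower. Large subunit genes gave 6 higher and 0 lower of 50 (median 0.16; 11 had an unadjusted p under 0.05, and DESeq2 called 8 higher and 0 lower), and small subunit genes 4 higher and 1 lower of 32 (median 0.09). By DESeq2, 12 of the ribosomal protein genes were higher and 1 lower, against 14.5% and 13.9% of all genes. Of the 17360 genes tested with edgeR, 7492 had an unadjusted p under 0.05.

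**Figure D2:**
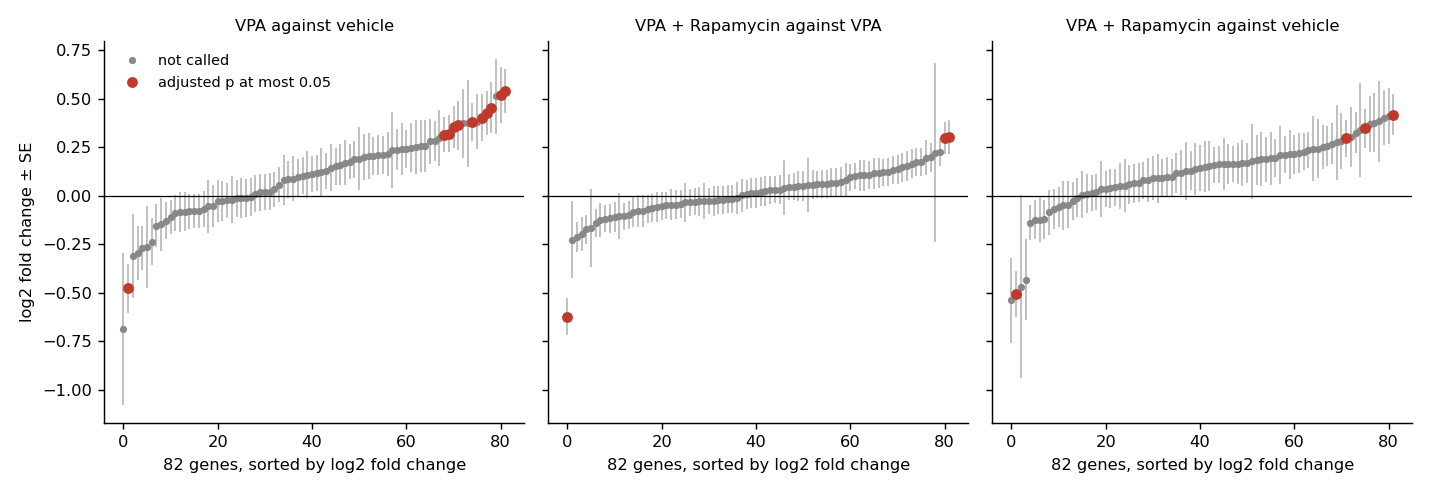
Log2 fold change ± SE of the 82 tested ribosomal protein genes in each comparison, sorted within each panel, with genes at an adjusted p of at most 0.05 in red. Estimates lie mostly within 0.5 of 0, with 10 genes called higher by VPA, and RPL22L1 stands alone at -0.62 in the middle panel.

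The count of raised genes depended on single libraries. Without vehicle 1 it was 35, without vehicle 2 it was 1 and without vehicle 3 it was 12, when 3480, 1968 and 3326 of all genes were called higher, against 2840 with all libraries. Leaving out VPA 1, VPA 2 or VPA 3 gave 1, 2 and 5, with 1902, 1791 and 1831 over all genes. Between vehicle 1 and vehicle 3 the ribosomal protein genes differed in both directions, by -0.54 to 1.17 on the log2(CPM + 1) scale, with vehicle 1 highest of the vehicle libraries for 53 genes, vehicle 3 for 26 and vehicle 2 for 3. The median coefficient of variation among the 82 genes was 10.1% in vehicle, 5.16% with VPA and 5.69% with VPA + Rapamycin. RPL36, a large subunit protein, shows the spread, with 190, 120 and 83.5 CPM in vehicle and 163, 162 and 184 CPM with VPA. LONP1 on the other strand and HSD11B1L on the same strand overlap RPL36 with mean counts of 65.9% and 14.4% of its own. RPS27, a small subunit protein, ran the other way within vehicle, with 301, 345 and 407 CPM, and had 370, 364 and 280 CPM with VPA. RPL36 and RPS27 were chosen as examples after their values were seen.

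GC content moved with this spread. Across the 82 genes, whose transcripts have a GC content of 39.5% to 63.6%, the difference between vehicle 1 and vehicle 3 had a Pearson correlation with GC content of 0.62, and over all 18003 genes one of 0.50. It was not particular to vehicle: pairs within the treated conditions ranged from -0.55 (VPA 1 minus VPA 3) to 0.65 (VPA + Rapamycin 2 minus VPA + Rapamycin 3) over the 82 genes. The log2 fold change of VPA against vehicle had a correlation with GC content of 0.40 over the 82 genes and of 0.12 over all genes. These correlations are across genes of the same libraries, and genes are not replicates. With a correction of each library for GC content, which was chosen after seeing the data, 14 ribosomal protein genes were higher and 4 lower, with a median of 0.06, against 18.7% of all genes called higher and 22.8% called lower. Markers of the cell types also moved: neuronal markers (DCX, STMN2, ELAVL3, ELAVL4 and TUBB3) fell in 4 of 5, and their sum ranged from 898 to 1533 CPM in vehicle, 717 to 800 with VPA and 770 to 813 with VPA + Rapamycin, with none at 0. Neural crest markers (SOX10, FOXD3 and TFAP2B) fell in 2 of the 2 tested, from 23.5 to 44.2 CPM in sum to 2.74 to 4.08 with VPA and 6.29 to 10.5 with VPA + Rapamycin, and TFAP2B was at 0 in 3 libraries. Mesenchymal markers rose in 2 of 6, COL1A1 and COL1A2, while 3 of the other estimates were below 0. Their sum, carried by these 2 genes, went from 134 to 291 CPM to 536 to 687 with VPA and 237 to 362 with VPA + Rapamycin, with PRRX1 at 0 in 3 libraries and TWIST1 in 1. Of the 4 progenitor markers, 1 rose with VPA and 1 fell with Rapamycin added to VPA. Of 4 markers of dividing cells (MKI67, TOP2A, CCNB1 and CDK1), 0 were called for VPA against vehicle. With Rapamycin added to VPA, 1 of these 4 fell and all 4 estimates were below 0. The part of these cell types and of cell division in the results was not tested.

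**Figure D3:**
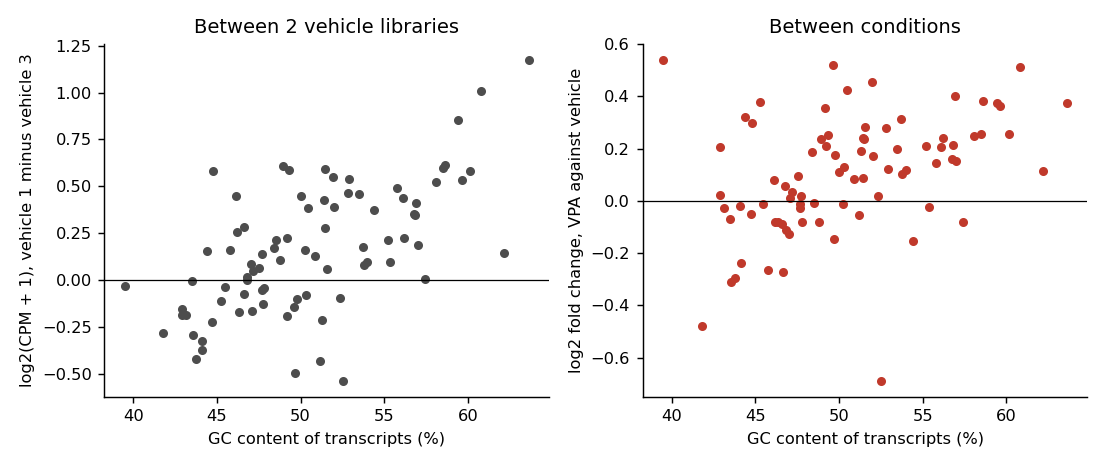
GC content of the transcripts (%) against the difference between vehicle 1 and vehicle 3 (left, log2(CPM + 1)) and against the log2 fold change of VPA against vehicle (right), each point being 1 of the 82 ribosomal protein genes. The correlation is 0.62 on the left and 0.40 on the right.

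RPL22L1 had the largest estimate among the ribosomal protein genes that passed. RPL22L1 is the paralog of RPL22 and can take its place in the large subunit. RPL22L1 had 40.2, 41.5 and 41.1 CPM in vehicle, 63.0, 61.8 and 53.6 CPM with VPA, and 40.4, 35.3 and 39.9 CPM with VPA + Rapamycin. All VPA libraries were above all others, which overlap between vehicle and VPA + Rapamycin. Its log2 fold change was 0.54 ± 0.11 (SE) for VPA against vehicle (edgeR adjusted p = 0.00467), a rise of 45.4%, and it kept its call in each of 14 alternative fits (0.50 to 0.62). RPL22 itself had 237, 224 and 271 CPM in vehicle and 297, 283 and 265 CPM with VPA, with a log2 fold change of 0.21 (edgeR adjusted p = 0.143). Its VPA range reaches into that of vehicle.

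The paralogs did not move as a class. RPL26L1, the paralog of RPL26, rose from 14.4, 14.5 and 16.0 CPM in vehicle to 22.9, 18.9 and 22.5 CPM with VPA (log2 fold change 0.52 ± 0.14 SE, edgeR adjusted p = 0.0186), with no overlap of the groups. RPL26 had 65.9, 56.4 and 43.7 CPM and then 66.7, 72.9 and 64.3 CPM, a log2 fold change of 0.30 that did not pass (edgeR adjusted p = 0.141). RPS27L, a paralog of RPS27 that responds to p53, fell from 56.3, 56.2 and 68.5 CPM to 46.8, 39.0 and 44.1 CPM (log2 fold change -0.48 ± 0.13 SE, edgeR adjusted p = 0.0149). Its groups did not overlap either, though LACTB on the other strand overlaps the gene with a mean count of 55.9% of its own, and the use of strand in counting is not given in the sources used here. RPS27 gave -0.05, RPL39 -0.29, RPL39L 0.24, RPL7 0.21, RPL7L1 -0.09, RPL3 0.15 and RPL10 -0.02 on the log2 fold change scale, and none of these passed. Without a vehicle library some did: RPL22 (adjusted p = 0.0185) and RPL7 (0.0252) without vehicle 3, and RPL26 (0.0144), RPL3 (0.0101) and RPL39 (0.0397) without vehicle 1. RPL26L1 lost its call without vehicle 2, VPA 1 or VPA 3 (adjusted p up to 0.0802), and RPS27L without VPA 2 or VPA 3 (up to 0.0910).

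**Figure D4:**
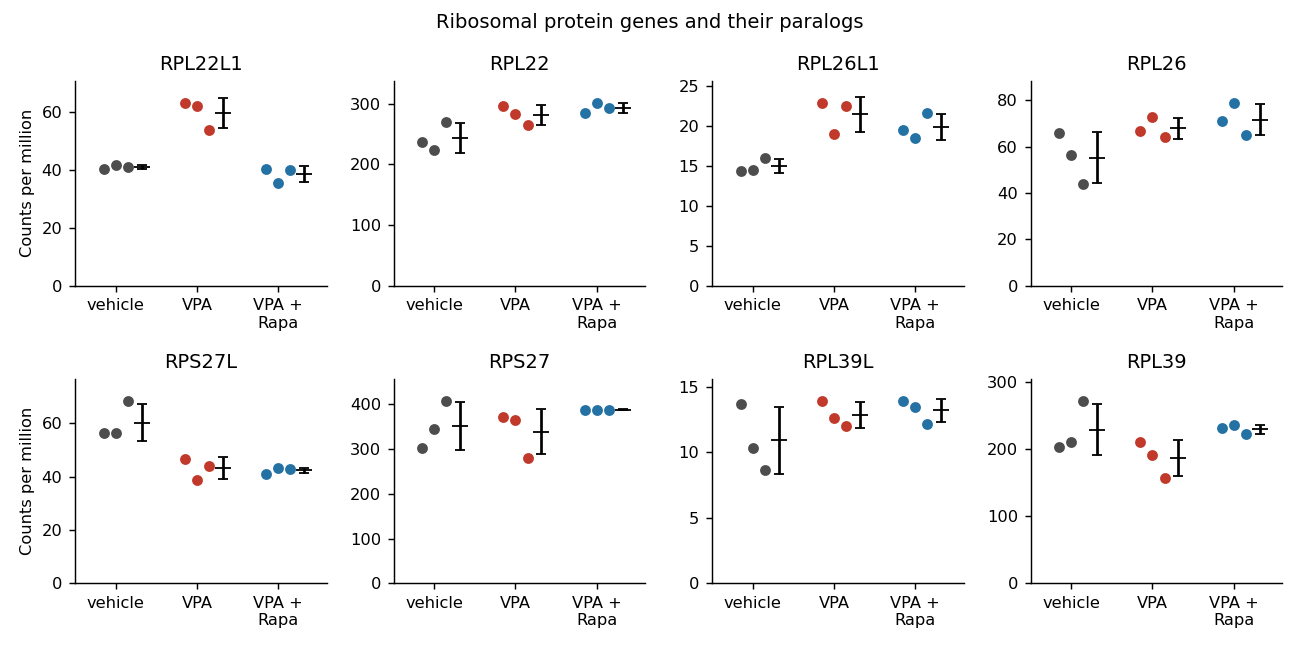
CPM in each library for 4 ribosomal protein paralogs and the genes they are named after. Points are libraries 1 to 3 of each condition, and bars are the mean ± SD of 3. RPL22L1 is high in the 3 VPA libraries only, at 53.6 to 63.0 CPM, and RPS27L is lower in all treated libraries than in vehicle.

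Other raised genes code for core proteins of both subunits. RPS23, which lies at the decoding centre, rose from 206, 191 and 222 CPM to 275, 274 and 254 CPM (log2 fold change 0.38 ± 0.10 SE, edgeR adjusted p = 0.0130). RPL41, the smallest ribosomal protein, rose from 557, 481 and 427 CPM to 690, 680 and 597 CPM (0.43 ± 0.11 SE, edgeR adjusted p = 0.0152). RPS6, the ribosomal protein phosphorylated downstream of mTOR, rose from 804, 747 and 721 CPM to 1011, 948 and 877 CPM (0.32 ± 0.09 SE, edgeR adjusted p = 0.0230). In these 3 genes, which were picked by their p, every VPA library was above every vehicle library. RPS18 (0.45), RPLP2 of the stalk (0.40), RPL23A (0.36) and RPS16 (0.31) also passed on the log2 fold change scale, with edgeR adjusted p between 0.0208 and 0.0261. PIDD1, on the other strand of RPLP2, had a mean count of 17.5% of that of RPLP2. Each of these 7 genes lost its call without vehicle 2, without VPA 1 and without VPA 2, and RPS18, RPLP2 and RPS16 also without VPA 3, with adjusted p up to 0.123.

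Several ribosomal proteins known also for other roles or uses did not pass. RPL5 and RPL11, which bind MDM2 when ribosome assembly fails, had log2 fold changes of 0.02 (edgeR adjusted p = 0.887) and 0.25 (edgeR adjusted p = 0.186) for VPA against vehicle. RPL11 varied within vehicle, at 453, 343 and 302 CPM, against 428, 412 and 466 CPM with VPA, and passed without vehicle 1 (adjusted p = 0.00379). RPLP0, often taken as a reference gene, had 2330, 2001 and 2184 CPM in vehicle and 2469, 2409 and 2178 CPM with VPA (0.12, edgeR adjusted p = 0.368). RPSA, also a laminin receptor, had a log2 fold change of 0.19 (edgeR adjusted p = 0.148) and passed without vehicle 1 (0.0226).

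The noncoding snoRNA hosts split into both directions under VPA, as did long noncoding genes as a whole. Of 21 hosts tested, 2 rose and 4 fell, against 16.4% of all genes called higher and 15.7% called lower. Of the 21 estimates, 16 were below 0, and the median log2 fold change was -0.16. Over all 2020 long noncoding genes tested, 116 rose and 355 fell, with a median of -0.27. The median of the hosts depended on the fit, at -0.27 with the correction for GC content and -0.28 without vehicle 3. With that correction 6 hosts were lower, against 22.8% of all genes. SNHG1 had 203, 185 and 196 CPM in vehicle, 144, 130 and 126 CPM with VPA, and 115, 131 and 119 CPM with VPA + Rapamycin. The vehicle libraries were above all treated ones, which overlap each other. The log2 fold change of VPA against vehicle was -0.54 ± 0.10 (SE, edgeR adjusted p = 0.00211), and SNHG1 kept its call in each of 14 alternative fits. SNHG6 had 54.1, 56.6 and 71.9 CPM in vehicle and 40.1, 37.1 and 36.5 CPM with VPA (-0.68 ± 0.13 SE, edgeR adjusted p = 0.00299), also called in each alternative.

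GAS5, whose spliced RNA builds up when growth stops, had 146, 126 and 142 CPM in vehicle, 110, 115 and 109 CPM with VPA, and 101, 117 and 107 CPM with VPA + Rapamycin. All treated libraries were below vehicle, and the log2 fold change of VPA against vehicle was -0.31 ± 0.10 (SE, edgeR adjusted p = 0.0335). ZBTB37, on the other strand, overlaps GAS5 with a mean count of 42.6% of its own, and GAS5 lost its call without VPA 1, VPA 2 or VPA 3 and in 3 other alternatives (adjusted p up to 0.133), among them the replicate block (0.0941). SNHG15 fell from 27.5, 18.5 and 23.7 CPM to 16.3, 16.5 and 15.6 CPM (-0.52 ± 0.16 SE, edgeR adjusted p = 0.0296), and lost its call without vehicle 1 or any VPA library (up to 0.106).

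The 2 hosts that rose were weakly expressed. SNHG4 had 9.78, 7.52 and 7.02 CPM in vehicle and 13.0, 14.3 and 17.8 CPM with VPA (log2 fold change 0.89 ± 0.20 SE, edgeR adjusted p = 0.00579), and kept its call in each of 14 alternative fits. SIL1 overlaps it on the other strand with a mean count of 126% of its own, so that part of its reads can belong to SIL1. SNHG18 had 9.66, 7.19 and 11.3 CPM in vehicle and 15.6, 17.8 and 15.2 CPM with VPA (0.79 ± 0.19 SE, edgeR adjusted p = 0.00943), and lost its call without VPA 2 (adjusted p = 0.0511). Both belong to the 5 hosts with a pyrimidine start, whose median log2 fold change was 0.57, while that of the 13 tested hosts with an entry and without such a start was -0.21. The 5 differ among themselves, since SNHG5 gave -0.06 and SNHG12 -0.47. Their median is the value of SNHG19 alone, which was not called. TRNAU1AP, on the other strand of SNHG12, had a mean count of 199% of that of SNHG12. GAS5 counts among the hosts without such a start, from a RefSeq start that lies outside the gene as the tables have it.

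Among the ribosomal protein genes, a pyrimidine start in RefSeq went with little difference. For VPA against vehicle, the 47 genes with one had a median log2 fold change of 0.15 (7 higher and 0 lower), and the 19 without had 0.08 (1 higher and 1 lower). The 19 include RPL4 and RPS4X, whose RefSeq start is no C. They may still have a TOP tract, so the split does not set TOP genes against others. Annotated snoRNA genes lie on the same strand inside 28 of the 83 ribosomal protein genes and 18 of the 23 hosts in GENCODE release 29, whose coordinates equal those of the tables for all 106 genes, and GAS5 holds 0 there. Only genes listed under the snoRNA type were counted, which leaves out SCARNA13, listed as scaRNA, on the strand of SNHG10. A count of 0, as for GAS5, thus means no annotated gene of that type and not that the introns hold none. The 28 ribosomal protein genes with a snoRNA gene had a median of 0.08 (3 higher and 0 lower), and the 54 tested without had 0.12 (7 higher and 1 lower).

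VPA + Rapamycin was compared with VPA to ask what Rapamycin changed in the presence of VPA. Of 82 ribosomal protein genes, 2 rose and 1 fell, against 3.01% of all genes called higher and 3.73% called lower, and the median log2 fold change was 0.02. RPL22L1 fell by 0.62 on the log2 scale (SE 0.09, edgeR adjusted p = 0.000572), or by 35.1%, and it kept its call in each of 14 alternative fits. This comparison and that with vehicle share the 3 VPA libraries, so that the 2 changes of RPL22L1 are not independent. Against vehicle, RPL22L1 with VPA + Rapamycin gave a log2 fold change of -0.08 (edgeR adjusted p = 0.651). RPS29, a small subunit protein, had 116, 124 and 101 CPM with VPA and 134, 137 and 146 CPM with VPA + Rapamycin (0.30 ± 0.08 SE, edgeR adjusted p = 0.0355), and LRR1 on the other strand had a mean count of 11.4% of that of RPS29. RPL39 had 211, 191 and 158 CPM and then 231, 235 and 222 CPM (0.30 ± 0.09 SE, edgeR adjusted p = 0.0473), while its vehicle libraries ranged from 203 to 272 CPM. RPS29 lost its call without VPA 1, VPA 3 or VPA + Rapamycin 3 (adjusted p up to 0.158) and in the fit of all 9 libraries (0.309), as RPL39 did in 7 of 14 alternatives, among them without VPA 2, VPA 3 or any VPA + Rapamycin library (up to 0.313). With VPA 3 or VPA + Rapamycin 3 left out, 0 ribosomal protein genes were called higher, against 1.89% and 1.22% of all genes.

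Among 19 hosts tested, 0 rose and 1 fell with Rapamycin, with 6 at an unadjusted p under 0.05 and the same counts by DESeq2, and a median log2 fold change of -0.13. Of all 17317 genes tested, 3714 had an unadjusted p under 0.05, with 3.01% called higher and 3.73% called lower. SNHG3 had 30.4, 32.9 and 35.5 CPM with VPA and 22.4, 25.1 and 25.3 CPM with VPA + Rapamycin (-0.44 ± 0.10 SE, edgeR adjusted p = 0.0163), without overlap. RCC1 shares its strand and locus with SNHG3 and had a mean count of 159% of its own. SNHG3 lost its call without VPA 2, VPA 3 or VPA + Rapamycin 1 (adjusted p up to 0.0716) and in the fit of all 9 libraries (0.109), so that 0 hosts were lower then. With the replicate block 2 hosts were lower, against 4.07% of all genes. SNHG4 (-0.42) and SNHG18 (-0.37), which were raised by VPA, had edgeR adjusted p of 0.142 and 0.139 here. Long noncoding genes as a whole had 48 higher and 12 lower of 2016, with a median of 0.16.

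Against vehicle, organoids with VPA + Rapamycin had 3 ribosomal protein genes higher and 1 lower of 82, against 9.81% of all genes called higher and 9.22% called lower. The median log2 fold change was 0.15, with 67 of 82 estimates above 0. With the replicate block 6 were higher and 1 lower, against 12.1% and 11.1% of all genes. RPL38, a large subunit protein required for patterning of the axial skeleton, had 74.8, 67.2 and 71.7 CPM in vehicle and 88.9, 101 and 95.8 CPM with VPA + Rapamycin (0.42 ± 0.11 SE, edgeR adjusted p = 0.0209). RPS23 (0.35, edgeR adjusted p = 0.0346) and RPS6 (0.30, edgeR adjusted p = 0.0494) were higher too, and RPS27L was lower, at 41.2, 43.2 and 42.8 CPM (-0.51 ± 0.12 SE, edgeR adjusted p = 0.0157). In all 4 genes, which were picked by their p, the groups did not overlap. RPS6 lost its call in 8 of 14 alternatives, among them the replicate block (adjusted p = 0.0673), no filter on low counts (0.0705) and leaving out vehicle 3 (0.0609), whereas RPL26, at 0.38, passed with the replicate block (0.0376) and not without it (0.106). Without vehicle 1 the count of higher genes was 22, without vehicle 3 it was 5, and without vehicle 2 or any library of VPA + Rapamycin it was 0, when 12.3%, 11.6% and 4.24% to 4.90% of all genes were called higher. RPS27L lost its call without any 1 of the VPA + Rapamycin libraries (adjusted p up to 0.0786).

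In this comparison, 5 of the 20 hosts tested fell and 0 rose, with 9 at an unadjusted p under 0.05 and the same counts by DESeq2. The median log2 fold change was -0.32, against -0.10 for 2091 long noncoding genes, of which 105 rose and 161 fell. Of all 17383 genes tested, 5872 had an unadjusted p under 0.05, with 9.81% called higher and 9.22% called lower. SNHG1 fell by 0.67 on the log2 scale (SE 0.10, edgeR adjusted p = 0.00208). SNHG8 had 22.1, 19.1 and 21.2 CPM in vehicle, 19.5, 13.8 and 15.2 CPM with VPA, and 8.79, 13.0 and 12.3 CPM with VPA + Rapamycin (-0.87 ± 0.18 SE, edgeR adjusted p = 0.00811). VPA overlapped vehicle, whereas VPA + Rapamycin was below both, at 13.0 CPM at most against 13.8 CPM at least with VPA. SNHG8 was not called for VPA + Rapamycin against VPA. SNHG1 and SNHG8 kept their calls in each of 14 alternative fits. SNHG15 (-0.67, edgeR adjusted p = 0.0288), SNHG6 (-0.44, edgeR adjusted p = 0.0466) and GAS5 (-0.35, edgeR adjusted p = 0.0453) also passed. SNHG15 lost its call without vehicle 1, VPA + Rapamycin 1 or VPA + Rapamycin 2, SNHG6 without vehicle 2, vehicle 3 or any VPA + Rapamycin library, and GAS5 without vehicle 1, vehicle 2 or any VPA + Rapamycin library (adjusted p up to 0.191). Leaving out 1 library gave 2 to 5 lower hosts, when 2.97% to 11.8% of all genes were called lower.

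Genes of related pathways were counted in the same fits, where VPA against vehicle had 16.4% of all genes called higher and 15.7% lower. For VPA against vehicle, 1 of 4 ribosomal proteins under other names passed, at a higher level (list median 0.22 on the log2 scale). Of 20 other mRNAs known for a TOP start, 1 rose and 2 fell, EIF3K by 0.39 and VIM by -0.40 on the log2 scale among them. Ribosome biogenesis factors gave 9 higher and 1 lower of 22 (median 0.26), with MYC, their transcriptional activator, at 1.09 (edgeR adjusted p = 0.00144), BOP1 at 0.81 and GNL3 at -0.49. Mitochondrial ribosomal proteins gave 18 higher and 2 lower of 77 (median 0.20), with MRPS12 at 0.81 and MRPL32 at -0.70. Genes that link mTOR to TOP mRNAs gave 1 higher and 0 lower of 9, the translation repressor EIF4EBP1 at 1.28 (edgeR adjusted p = 0.00486). Nonsense-mediated decay factors gave 0 higher and 2 lower of 10.

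Hosts outside the naming rule also fell in part. ZFAS1 had 44.4, 47.6 and 59.8 CPM in vehicle, 32.9, 28.8 and 28.9 CPM with VPA, and 35.1, 31.7 and 35.9 CPM with VPA + Rapamycin (VPA against vehicle -0.74 ± 0.14 SE on the log2 scale, edgeR adjusted p = 0.00240). EPB41L4A-AS1 fell by 0.80 (edgeR adjusted p = 0.00305), and DANCR rose by 0.39 (edgeR adjusted p = 0.0250). Protein-coding snoRNA hosts gave 3 higher and 4 lower of 15, with TAF1D at -1.02 and EIF4A1 at -1.01. Ribosomal protein pseudogenes gave 0 higher and 2 lower of 76, with 16 at an unadjusted p under 0.05 and 2 higher and 3 lower by DESeq2. Of all 17360 genes tested for VPA against vehicle, 7492 had an unadjusted p under 0.05. With Rapamycin added to VPA, 3.01% of all genes were called higher and 3.73% lower, and 3714 of 17317 had an unadjusted p under 0.05. In that comparison DANCR fell by 0.32 (edgeR adjusted p = 0.0246). Ribosome biogenesis factors gave 0 calls among 22, with 7 at an unadjusted p under 0.05. By DESeq2, 2 of them were lower, against 4.54% of all genes. Mitochondrial ribosomal proteins gave 0 higher and 2 lower of 77, MRPS12 at -0.64 being 1 of them.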

How the data were processed

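Poly-A RNA of 9 libraries was reverse transcribed from random hexamers with the NEBNext Ultra RNA kit. Per the submitters' processing notes the authors used HISAT2 2.0.5 and featureCounts 1.5.0-p3, and they deposited raw counts per gene in 3 tables, 1 for each pair of conditions, with gene lengths. The coordinates are on GRCh38. The strand setting and the treatment of reads with several matches are not given in the sources used here. Counts of a library were equal between tables (0 differed). The 36 columns of normalized values and FPKM were not used, and neither were the authors' fold changes and p-values.

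Each pair was fitted on all genes of its table in R 4.3.3 with edgeR 4.0.16 (TMM, filterByExpr, quasi-likelihood test, Benjamini-Hochberg adjusted p at most 0.05), without a replicate block. The authors ran DESeq2 on each pair, and DESeq2 1.42.0 was an alternative here. Further alternatives were upper-quartile factors, TMM without the genes studied, no filter, a minimum of 10 counts in each library, a fit of all 9 libraries together, the replicate block, leaving out each library and, chosen after seeing the data, offsets from a loess curve on GC content. On simulated data no called change had the wrong sign, and the share of false calls of the edgeR fit was above its nominal level in the draw used. That draw changed far fewer genes than were called for VPA against vehicle, so it does not give the share of false calls in the data. Same-numbered libraries share a label prefix across conditions and the study describes pools of each clone. The numbers were thus taken to pair the libraries, though the main fits do not use this pairing. Deviations of same-numbered libraries had correlations of -0.06 to 0.16, and those of differently numbered libraries -0.17 to 0.07. GC content is the mean over the transcripts of a gene in GENCODE release 29, and starts are from RefSeq.

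The genes and the gene lists were chosen with earlier results of these data known. Named are up to 10 called genes of each class and direction with the smallest p, the paralog pairs, RPS6, RPLP0, RPSA, RPL5, RPL11, GAS5, SNHG1, and the 3 highest and 3 lowest levels per length. Up to 4 called genes of each other list could be named. Called genes were picked by their p, so that groups without overlap only describe them. The share of all genes whose groups did not overlap was not counted. A few genes that these rules name are not reported here, though counts include them. Overlapping genes are given beside the values of tested genes where their mean count is above 10% of that of the gene.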

Additional observations from a re-analysis of the deposited data

How the results depend on the processing

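Directions of the called genes did not reverse in any alternative run, and the cause of the moved counts below was not tested unless the setting itself shows it. With GC content offsets, lower ribosomal protein genes for VPA against vehicle were 4, and for VPA + Rapamycin against vehicle 6 ribosomal protein genes were higher and 9 hosts lower. Of all genes, 22.8% were called lower in the former fit, and 12.3% higher and 17.1% lower in the latter. For VPA + Rapamycin against VPA, DESeq2 gave 2 lower ribosomal protein genes, upper-quartile normalization 1 higher, and no filter 2 lower hosts. The shares of all genes called in these directions were 4.54%, 2.78% and 3.12%. All 9 libraries in a single fit gave 0 higher ribosomal protein genes and 0 lower hosts there, with 44 higher and 69 lower calls over all genes against 522 and 646. For VPA + Rapamycin against vehicle, higher ribosomal protein genes were 5 with DESeq2, 5 with no filter and 8 with all 9 libraries, and lower hosts were 3 with upper-quartile normalization. Shares of all genes called higher in the first 3 of these fits were 9.64%, 6.52% and 13%, and 8.02% were lower with upper-quartile normalization.

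With 1 library left out, VPA against vehicle gave 1 to 35 higher and 0 to 2 lower ribosomal protein genes, and 1 to 3 higher and 2 to 4 lower hosts. In these fits 9.97% to 19.5% of all genes were called higher and 8.9% to 18.1% lower. VPA + Rapamycin against VPA gave 0 to 2 higher and 1 to 4 lower ribosomal protein genes and 0 to 1 lower hosts, when 0.978% to 2.99% of all genes were called higher and 1.66% to 3.76% lower. VPA + Rapamycin against vehicle gave 0 to 22 higher and 0 to 2 lower ribosomal protein genes, and 0 to 1 higher and 2 to 5 lower hosts. There, 4.24% to 12.3% of all genes were called higher and 2.97% to 11.8% lower.

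With the replicate block, VPA + Rapamycin against VPA gave 2 lower hosts and VPA + Rapamycin against vehicle 6 higher ribosomal protein genes, and the other counts stayed within 1.5 times. Of all genes, 4.07% were lower in the former fit and 12.1% higher in the latter. For VPA against vehicle the block gave 13 higher ribosomal protein genes, against 15% of all genes. Among the named ribosomal protein genes and hosts, the block ended the calls of GAS5 for VPA against vehicle and RPS6 for VPA + Rapamycin against vehicle, added RPL26 there and changed no other call.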
